A study of Mus musculus with 8 samples.

Results

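The 10 genes described here encode core and naive pluripotency transcription factors of the mouse: Pou5f1, Sox2, Esrrb, Klf2, Klf4, Klf5, Tbx3, Tfcp2l1, Zfp42 and Nr0b1. They were chosen by name, and each was read from the probe set with exactly 1 gene symbol and the highest mean level, so that all 10 were found among 19937 genes; each of them had 1 such probe set. The RNA came from R1, an embryonic stem cell line from a male mouse embryo (129X1 x 129S1), and each of 8 samples was hybridised to its own Affymetrix gene array. In 4 samples the cells had received a pLKO.1 plasmid with a hairpin against MKRN1 (shMKRN1), which encodes a RING-finger ubiquitin ligase and RNA-binding protein, and in 4 samples a pLKO.1 plasmid with a hairpin against GFP (shGFP), a jellyfish gene that these cells lack. Both groups grew on gelatin in medium holding LIF and 15% fetal bovine serum, took up 2 µg of plasmid with Lipofectamine, were kept under puromycin (2 µg/mL) over 4 days and gave their RNA on day 6. The question put to the factors is whether their transcript levels differ once Mkrn1 is knocked down. Each group is a puromycin-resistant population after transient transfection, with 1 hairpin per gene, and no label tells if the 4 samples were transfected separately; a p-value here is set against the spread of these samples only, and that spread may be technical.

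The pluripotency network keeps embryonic stem cells able to self-renew and to form all embryonic tissues. OCT4, the product of Pou5f1, and SOX2 bind DNA side by side at many regulatory elements and form its core. The naive factors around them hold cells in the state of the early epiblast. In mouse stem cells LIF acts through STAT3 to sustain Klf4 and Tfcp2l1, PI3K signalling sustains Tbx3, WNT signalling relieves TCF7L1 repression of Esrrb, and ERK signalling opposes the naive state.

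The hairpin sequence is printed because it is the agent directed at Mkrn1. It is 21 bases long, and its target gene Mkrn1 lies on chromosome 6; its place in the transcript was not analysed here.
shMKRN1: gcgagatgttgcttatgcttt
On the arrays Mkrn1 had log2 levels of 9.81, 9.81, 9.86 and 9.88 in shMKRN1, against 10.45, 10.45, 10.51 and 10.34 in shGFP. The groups did not overlap, and the log2 change was -0.60 (SE 0.052; limma adjusted p = 0.000767).

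Promoters of 8 of the 10 genes were found in RefSeq (GRCm38.p6), some with more than 1 start. Klf2 is shown because it was the factor past the threshold, Klf4 as the relative set against it, and Zfp42 because it carried most motif matches. Each sequence is the 250 bases before the start of transcription, 5′ to 3′ on the strand of the gene. Klf2 lies at chr8:72318812-72319061 on the plus strand, Klf4 at chr4:55532476-55532725 on the minus strand and Zfp42 at chr8:43307010-43307259 on the minus strand. Capitals mark matches to the motifs named after the sequences, on either strand.
Klf2: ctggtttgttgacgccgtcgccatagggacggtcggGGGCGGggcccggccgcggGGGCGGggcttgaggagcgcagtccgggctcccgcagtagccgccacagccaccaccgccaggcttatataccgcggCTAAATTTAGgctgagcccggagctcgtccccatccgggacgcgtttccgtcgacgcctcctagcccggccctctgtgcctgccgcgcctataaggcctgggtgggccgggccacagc
Klf4: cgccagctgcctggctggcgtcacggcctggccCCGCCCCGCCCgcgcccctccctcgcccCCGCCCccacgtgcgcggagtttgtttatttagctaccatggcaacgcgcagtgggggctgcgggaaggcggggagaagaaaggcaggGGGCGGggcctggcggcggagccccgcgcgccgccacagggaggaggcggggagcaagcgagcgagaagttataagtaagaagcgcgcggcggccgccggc
Zfp42: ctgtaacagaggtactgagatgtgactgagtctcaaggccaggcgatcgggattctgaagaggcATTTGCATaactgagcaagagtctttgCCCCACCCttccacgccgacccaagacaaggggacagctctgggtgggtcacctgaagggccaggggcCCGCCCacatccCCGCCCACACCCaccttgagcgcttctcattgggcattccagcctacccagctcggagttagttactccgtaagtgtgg

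The Klf2 window held 2 GC boxes (GGGCGG) and 1 match to the MEF2 motif (CTAAATTTAG here), and the Klf4 window held 4 GC boxes. A GC box stood in 32.7% of all 32851 promoter windows of this length, and the MEF2 motif in 3.2%. G and C made up 71.2% of the Klf2 window and 74% of the Klf4 window, against a median of 52.4% over all windows. The shares over all windows are not matched for this. The Zfp42 window held the octamer bound by OCT4 (ATTTGCAT) at 186 to 179 bases before the start, a motif found in 1.6% of all windows. It also held 2 matches to a KLF motif (CCNCACCC; 14.9% of all windows) and 2 GC boxes, of which 1 overlapped a KLF match. Esrrb had a KLF match before each of its 2 starts, the second Pou5f1 start had a SOX match (ACAATG; 10.7%), and Sox2 had 2 GC boxes. The first Pou5f1 start had 1 GC box, and Nr0b1 had a TATA match (TATAAA; 12.4%). Tfcp2l1 had a TATA match and a match to the loose MEF2 letters (CTAGCCGTAG), with GCCG in the middle where Klf2 had AATT. No match to the searched ESRRB (TCAAGGTCA; 0.387%), STAT (TTCCNGGAA; 0.913%), TFCP2L1 (a pair of CCAG; 2.78%) or T-box (TCACACCT; 1.12%) letters lay in these windows. The motifs were searched on both strands, and a match is a description of the letters.

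The median log2 level of an array was 7.14 to 7.24. The leading principal component, with 37.6% of the variance, set array shGFP 7 at 23.2, against 6.2 or less for the other shGFP arrays, and array shMKRN1 8 at 7.46, against -6.02 or less for the other shMKRN1 arrays. Results are therefore also given without these 2 arrays. The 8 stem cell markers were Dppa5a, Tdgf1, Lin28a, Utf1, Fgf4, Sall4, Zscan10 and Dppa4. They averaged 11.69 to 11.74 in shMKRN1 arrays and 11.71 to 11.78 in shGFP arrays, and none passed the test. This mean covers unlike changes: without overlap between the groups, Fgf4 was higher (0.13) and Zscan10 lower (-0.17). The markers are not a separate set. Sall4, Zscan10 and Dppa4 are counted again below among the other regulators, and the rest among the stem cell markers, where other genes passed. All 10 factors lay well above the level of silent receptor genes, 95% of which were below 6.50, with values between 9.33 and 12.47.

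Klf2 rose in shMKRN1 cells, and it was the 1 factor of the 10 past the limma threshold of an adjusted p of 0.05, against 4.49% of all genes in either direction, 3.66% higher and 0.838% lower. This call was lost in 7 of the 8 fits without 1 array. Tbx3 had a larger change with more spread, and Nr0b1 was lower without overlap between the groups; neither passed. For the core pair Pou5f1 and Sox2 the groups overlapped closely. The median change of the 10 factors was 0.01 on the log2 scale, and that of all genes 0.01. The median size of a change, whatever its sign, was 0.09 for the factors and 0.08 for all genes. The groups did not overlap for 3 factors (30%), 2 higher and 1 lower, and for 14.1% of all genes, 10.6% higher and 3.51% lower. An unadjusted limma p under 0.05 was met by 4 of the 10 factors (Klf2, Tbx3, Nr0b1 and Esrrb), and by 19.5% of all genes.

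**Figure D1:**
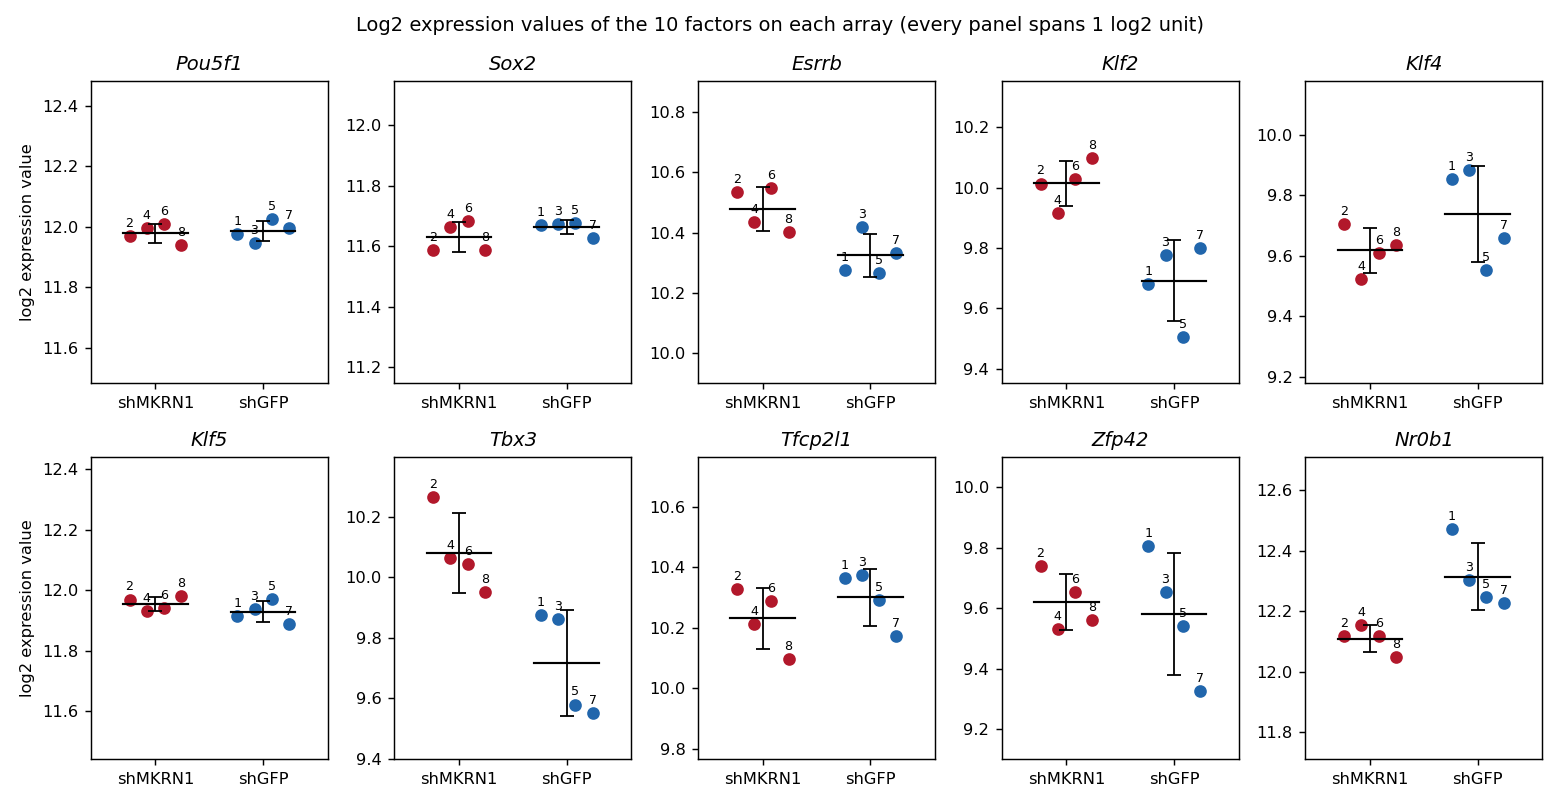
Log2 expression values (vertical axis) of the 10 factors on each array, with shMKRN1 arrays (red) left of shGFP arrays (blue); the numbers are those of the arrays, long lines are means, error bars are SD (n = 4 each), and every panel spans 1 log2 unit. The groups separate for Klf2, Tbx3 and Nr0b1 and overlap for the other 7 factors.

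The core factors came first in the order of roles. Pou5f1 encodes OCT4, the POU factor without which pluripotent cells are lost. It had log2 levels of 11.97, 12.00, 12.01 and 11.94 in shMKRN1, against 11.98, 11.95, 12.03 and 12.00 in shGFP. The shMKRN1 values lay inside or just below the range of shGFP. The change was -0.01 (SE 0.046; limma adjusted p = 0.953), with a 95% confidence interval of the level from 7.4% lower to 6.74% higher, and its sign turned with quantile normalization and median centring. Sox2, the HMG-box partner of OCT4, had 11.59, 11.66, 11.68 and 11.59 in shMKRN1, against 11.67, 11.67, 11.68 and 11.63 in shGFP. Arrays shMKRN1 2 and 8 were the lowest of the 8. The Sox2 change was -0.03 (SE 0.048; limma adjusted p = 0.785), with an interval from -0.14 to 0.07. In a bulk sample, fewer cells that express a gene and less RNA per cell cannot be told apart.

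Esrrb encodes an orphan nuclear receptor that acts with NANOG and is repressed by TCF7L1. It had 10.53, 10.43, 10.55 and 10.40 in shMKRN1, against 10.28, 10.42, 10.27 and 10.33 in shGFP. The groups overlapped only through shMKRN1 8 and shGFP 3. Esrrb differed by 0.15 (SE 0.058; limma adjusted p = 0.171) and did not pass. Its level without both shGFP 7 and shMKRN1 8 differed by 0.18 (limma adjusted p = 0.143).

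The 3 zinc finger factors of the Krüppel-like family support self-renewal in mouse stem cells and bind related GC-rich and CACCC sequences. Klf2, which has been placed downstream of OCT4, had 10.01, 9.92, 10.03 and 10.10 in shMKRN1, against 9.68, 9.78, 9.51 and 9.80 in shGFP. Every shMKRN1 array was above every shGFP array, and shGFP 5 was the lowest of all. Klf2 rose 1.25-fold, with a 95% confidence interval of 1.12 to 1.40 (log2 change 0.32, SE 0.073; limma adjusted p = 0.0369). The call was lost in 7 of the 8 fits that left out 1 array, at adjusted p-values between 0.0563 and 0.108, and held without shGFP 7 (0.0318). It was also lost with quantile normalization (limma adjusted p = 0.0799), with adjustment over all 34760 probe sets (0.0856) and without both shGFP 7 and shMKRN1 8 (0.0501), while the change stayed between 0.26 and 0.36 across all these fits.

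Klf4, a target of LIF and STAT3 and a reprogramming factor, had 9.70, 9.52, 9.61 and 9.64 in shMKRN1, against 9.86, 9.88, 9.55 and 9.66 in shGFP. Arrays shGFP 1 and 3 were the highest of the 8, and the other shGFP arrays lay among the shMKRN1 arrays. The change was -0.12 (SE 0.080; limma adjusted p = 0.468), with an interval from -0.30 to 0.06. Klf5, which promotes proliferation and self-renewal of stem cells, had 11.97, 11.93, 11.94 and 11.98 in shMKRN1, against 11.92, 11.94, 11.97 and 11.89 in shGFP. The arrays of both groups were mixed in order, and shGFP 7 was the lowest. The Klf5 change was 0.03 (SE 0.046; limma adjusted p = 0.818), with an interval from -0.08 to 0.13.

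The 3 Klf genes were then compared with each other within each array, which asks whether they changed unequally; the size of a difference within an array has no meaning by itself, since the genes have different probes. Klf2 minus Klf4 was 0.31, 0.39, 0.42 and 0.46 in shMKRN1, against -0.18, -0.11, -0.05 and 0.14 in shGFP. All shMKRN1 arrays were above all shGFP arrays. The Klf2 change exceeded the Klf4 change by 0.44 (means 0.40 ± 0.064 and -0.05 ± 0.14; SD, n = 4 each; exact two-sided permutation p = 0.0286, the smallest that 70 assignments allow, and 0.0429 adjusted over 3 pairs). Klf2 minus Klf5 was -1.96, -2.01, -1.91 and -1.88 in shMKRN1, against -2.24, -2.16, -2.46 and -2.09 in shGFP, again without overlap. The Klf2 change exceeded the Klf5 change by 0.30 (exact two-sided permutation p = 0.0286, adjusted 0.0429), and this p was 0.0571 with quantile normalization. Klf5 itself changed by 0.03, so this pair largely repeats the Klf2 values. Both pairs with Klf2 share those values and are not separate results. For Klf4 against Klf5 the changes differed by -0.15 (exact permutation p = 0.2), and the groups overlapped; without shGFP 5 the difference was -0.22 (exact permutation p = 0.0286). Without shMKRN1 6 or shMKRN1 8 the exact permutation p of Klf2 against Klf4 was 0.0571, and so was that of Klf2 against Klf5 without any 1 of the 4 shMKRN1 arrays. Without 1 array there are fewer than 70 assignments. The smallest exact permutation p is then again 0.0286 and the next 0.0571, so a move between them is a single step.

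**Figure D2:**
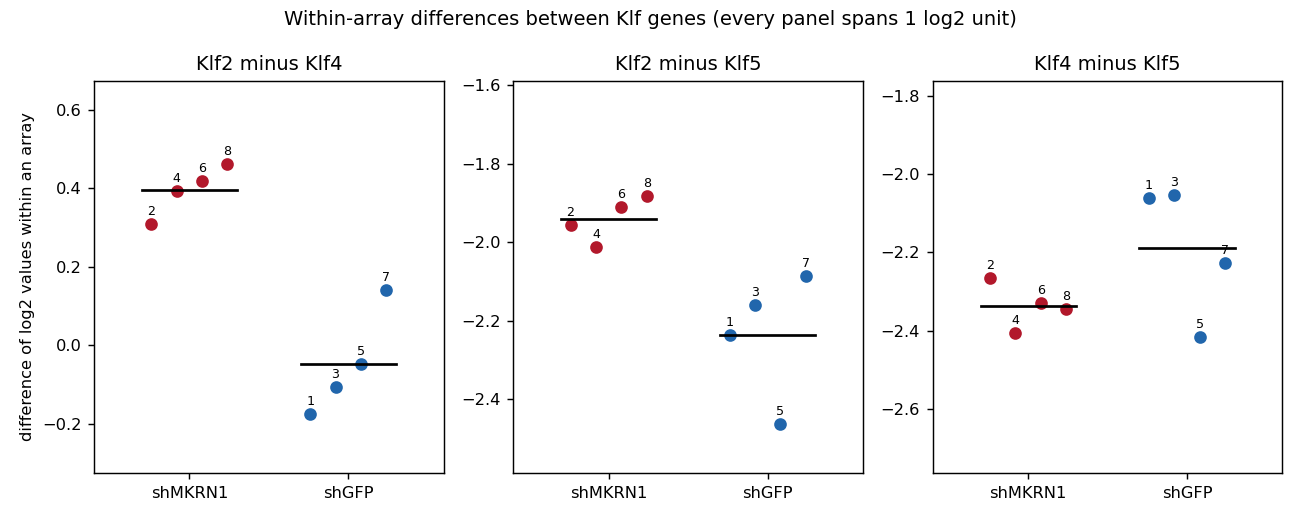
Differences of log2 values within an array (vertical axis) for the 3 pairs of Klf genes, with shMKRN1 arrays (red) left of shGFP arrays (blue); numbers are those of the arrays, lines are means (n = 4 each), and every panel spans 1 log2 unit. Klf2 minus Klf4 and Klf2 minus Klf5 separate the groups, while Klf4 minus Klf5 does not.

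Tbx3, a T-box factor of the naive network, had 10.27, 10.07, 10.04 and 9.95 in shMKRN1, against 9.87, 9.86, 9.58 and 9.55 in shGFP. The groups did not overlap, but shGFP 1 and 3 lay close to shMKRN1 8, and shGFP 5 and 7 lay lower. The change was 1.29-fold, with an interval of 1.11 to 1.49 (log2 change 0.37, SE 0.095; limma adjusted p = 0.0605). It did not pass the threshold in the fit of all genes, and did so with median centring (limma adjusted p = 0.0426), in a fit of the genes above the median level (0.0244), with array weights (0.0358) and with a variance trend and robust moderation together (0.0189). Tbx3 did not pass with quantile normalization (limma adjusted p = 0.0539) or adjustment over every probe set (0.123). Nor did it pass without both shGFP 7 and shMKRN1 8 (0.0769). In the fits without 1 array the change lay between 0.30 and 0.42, with adjusted p-values of 0.0575 to 0.153.

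Tfcp2l1, a CP2-family factor downstream of STAT3, had 10.33, 10.21, 10.29 and 10.10 in shMKRN1, against 10.36, 10.37, 10.29 and 10.17 in shGFP. Arrays shMKRN1 8 and shGFP 7 were the lowest of their groups, and the groups overlapped. The change was -0.07 (SE 0.068; limma adjusted p = 0.655). Zfp42, the zinc finger gene also called Rex1 and a common reporter of the naive state, had 9.74, 9.53, 9.65 and 9.56 in shMKRN1, against 9.81, 9.65, 9.54 and 9.33 in shGFP. The shGFP arrays alone spanned the whole range. The Zfp42 change was 0.04 (SE 0.096; limma adjusted p = 0.875), with the widest interval of the 10 factors (-0.18 to 0.25), and its sign turned with quantile normalization and without shGFP 7.

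Nr0b1 encodes DAX1, an orphan nuclear receptor without a usual DNA-binding domain that interacts with OCT4 and represses its activity. It had 12.12, 12.15, 12.12 and 12.05 in shMKRN1, against 12.47, 12.30, 12.25 and 12.23 in shGFP. Every shMKRN1 array was below every shGFP array, and shGFP 1 was the highest. The level in shMKRN1 was 0.868 of that in shGFP, with an interval of 0.787 to 0.956 (log2 change -0.20, SE 0.063; limma adjusted p = 0.101). This did not pass in the fit of all genes, and passed in a fit of the genes above the median level (limma adjusted p = 0.0377), with array weights (0.0274) and with a variance trend and robust moderation together (0.0206). Without 1 array the change lay between -0.23 and -0.15.

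**Figure D3:**
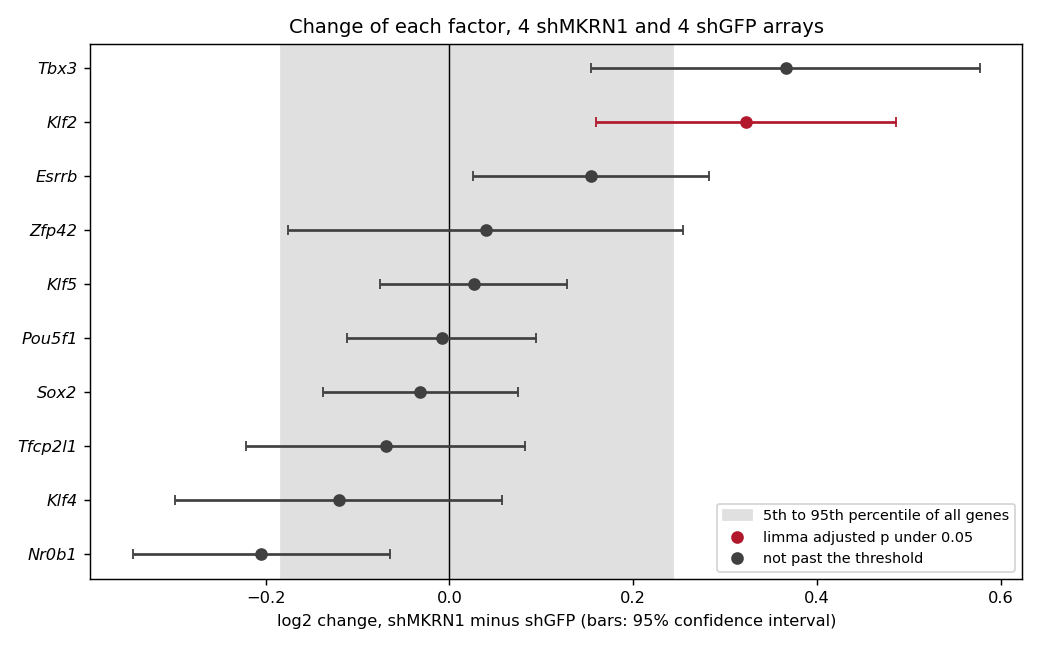
Log2 change, shMKRN1 minus shGFP (horizontal axis), of each factor with its 95% confidence interval (n = 4 each); the grey band holds the 5th to 95th percentile of the changes of all genes (-0.18 to 0.24). Tbx3 at 0.37 and Klf2 at 0.32 lie above the band and Nr0b1 at -0.20 below it, and Klf2 is past the limma threshold.

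**Figure D4:**
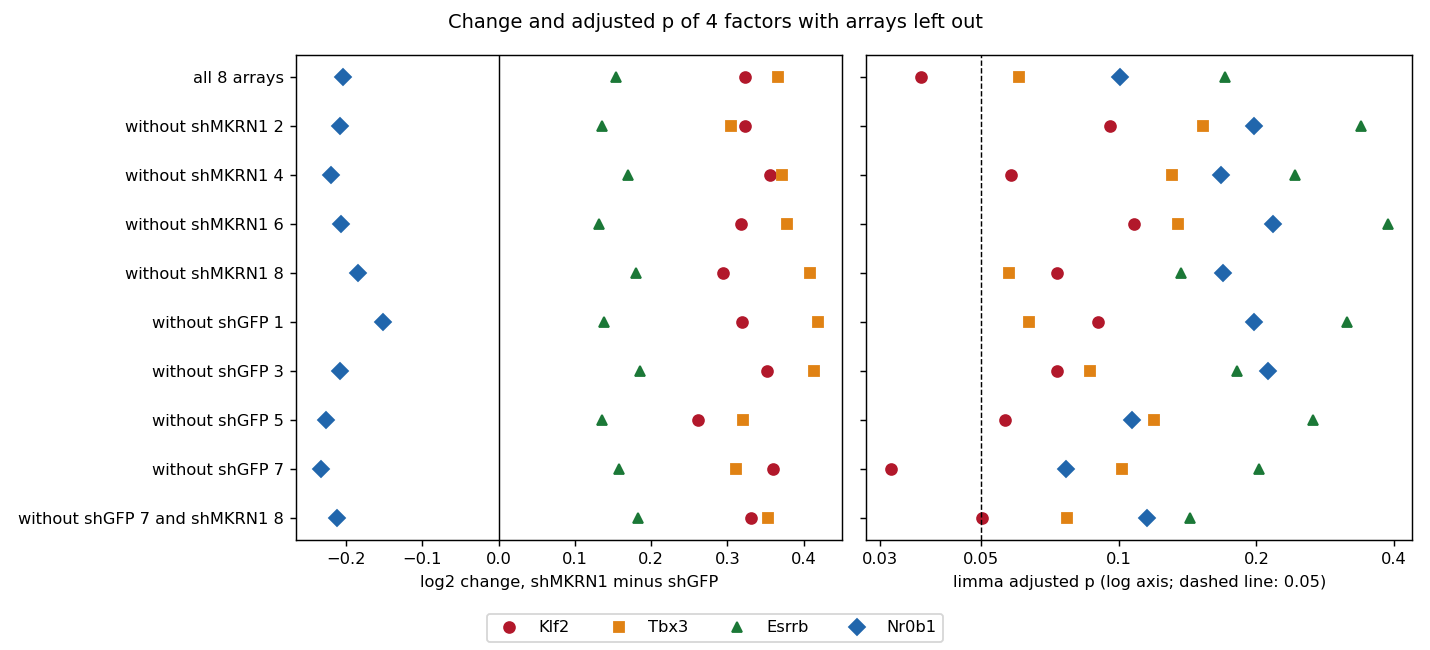
Log2 change, shMKRN1 minus shGFP (left), and limma adjusted p on a log axis (right) of Klf2, Tbx3, Esrrb and Nr0b1 with all 8 arrays, without each array in turn and without shGFP 7 and shMKRN1 8. The changes keep their sign in every fit shown, and Klf2 is below 0.05 with all arrays and without shGFP 7.

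The spread between arrays differed among the factors. The pooled SD within groups was between 0.030 and 0.16 on the log2 scale, with a median of 0.091 for the factors and 0.10 for all genes. Pou5f1, Sox2 and Klf5 varied least, and Zfp42 and Tbx3 most. Array shMKRN1 8 had the lowest value of its group for 6 of the 10 factors, and shGFP 7 also for 6, while shMKRN1 2, shMKRN1 6 and shGFP 1 had it for none. These are the 2 arrays that stood apart on the leading component, and the part of that in the factors' values was not tested. Without both, the change was 0.33 for Klf2, 0.35 for Tbx3 and -0.21 for Nr0b1, and 0.48 for Klf2 against Klf4.

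By root mean square difference over the 8 arrays, 4 genes were named for each of the 3 factors with the largest changes, out of 9683 genes above the median level; each profile was set to a mean of 0 in shGFP first. The profiles nearest to Klf2 were those of Fam117a (0.043), Cenpm (0.052), which encodes a centromere protein, Ttyh2 (0.053) and Cryzl2 (0.059). Of these Fam117a, Cenpm and Cryzl2 rose, with changes of 0.30, 0.35 and 0.37 (limma adjusted p of 0.0404, 0.0259 and 0.0136), and Ttyh2 had a change of 0.26 (0.0551). Nearest to Tbx3 were Serpinh1 (0.050), a chaperone of collagen, Prss42 (0.056), Tmem231 (0.061) and the ceramidase gene Acer2 (0.065). Tmem231 and Acer2 rose by 0.31 and 0.33 (limma adjusted p of 0.0448 and 0.0336). Nearest to Nr0b1 were Rc3h1 (0.032), which encodes the RNA-binding protein Roquin, Fam83h (0.037), Mast4 (0.039) and Aoah (0.040), none of which passed the test. These are the nearest of 9683 profiles over 8 values, given as a description. The search used the shMKRN1 values too, so it picked genes with changes near that of the factor. Their changes and p-values follow from this choice and are not separate results.

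Among 25 measured other regulators of the network, 1 rose and 1 fell (8%, against 4.49% of all genes), with a median change of -0.03. The homeobox gene Nanog had 12.54, 12.58, 12.61 and 12.49 in shMKRN1, against 12.36, 12.27, 12.33 and 12.27 in shGFP, and rose by 0.25 (limma adjusted p = 0.0256). Tet1, an enzyme that oxidises methylated cytosine, had 12.78, 12.72, 12.70 and 12.77 in shMKRN1, against 13.00, 12.97, 12.98 and 12.94 in shGFP, and fell by 0.23 (limma adjusted p = 0.0238; 0.0503 with median centring). The next by p were the homeobox gene Gbx2 (-0.22, limma adjusted p = 0.0964) and the forkhead gene Foxd3 (-0.19, limma adjusted p = 0.118). The Nanog call was lost without 4 single arrays and the Tet1 call without 5, with highest limma adjusted p-values of 0.0974 and 0.0946. With array weights, where 1933 of 19937 genes passed as higher and 824 as lower, the list had 1 gene higher and 5 lower.

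Of 18 measured stem cell markers and genes with OCT4 and SOX2 bound elements, 6 rose and 1 fell (38.9%, against 4.49% of all genes), with a median change of 0.05. The list was chosen with earlier results of these data known, so its share is a description. It includes Dppa5a, Tdgf1, Lin28a, Utf1 and Fgf4 of the marker set above, which did not pass. Alpl, the alkaline phosphatase used to stain stem cell colonies, had 10.88, 10.76, 10.83 and 10.78 in shMKRN1, against 10.51, 10.58, 10.43 and 10.39 in shGFP, and rose by 0.34 (limma adjusted p = 0.0127). Pecam1, an adhesion molecule of the inner cell mass, had 8.98, 8.95, 8.95 and 8.76 in shMKRN1, against 8.55, 8.50, 8.30 and 8.09 in shGFP, and rose by 0.55 (limma adjusted p = 0.0162). The groups did not overlap for either gene. Lefty2, an antagonist of Nodal, rose by 0.33 (limma adjusted p = 0.0262) and Fbxo15, whose enhancer binds OCT4 and SOX2, by 0.40 (0.0352). Slc2a3 rose by 0.50 and Dppa3 by 0.79 (limma adjusted p of 0.00134 and 0.0233). Dppa3 was dim in shGFP, at 6.72, 6.66, 6.50 and 7.20, with the silent level at 6.50. Both genes lie close to Nanog on chromosome 6, and whether the 3 rose separately was not tested. Jam2, an adhesion molecule of cell junctions, fell by 0.27 (limma adjusted p = 0.0423; 0.0703 with median centring). Slc2a3 kept its call in all 8 fits without 1 array, Alpl in 7, Pecam1 in 5, Dppa3 and Lefty2 in 4, Fbxo15 in 2 and Jam2 in 1. Without shMKRN1 6, where 309 of 19937 genes passed, the list had 2 genes higher and none lower.

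Of 20 measured signalling genes upstream of the naive factors, 2 rose and 1 fell (15%, against 4.49% of all genes), with a median change of 0.08. Pim1, a kinase gene induced by STAT3, had 10.80, 10.80, 10.83 and 10.78 in shMKRN1, against 10.22, 10.35, 10.35 and 10.25 in shGFP. It rose by 0.51 (SE 0.050; limma adjusted p = 0.00126). Map2k1, which encodes the ERK pathway kinase MEK1, had 10.14, 10.05, 10.16 and 10.13 in shMKRN1, against 9.82, 9.79, 9.73 and 9.79 in shGFP, and rose by 0.34 (SE 0.049; limma adjusted p = 0.00541). Both kept their calls in all 8 fits without 1 array. Lifr, the LIF receptor subunit, had 9.39, 9.37, 9.33 and 9.26 in shMKRN1, against 9.75, 9.71, 9.77 and 9.47 in shGFP, and fell by 0.34 (limma adjusted p = 0.0303). Its call held in 1 of the 8 fits without 1 array and was lost with median centring (limma adjusted p = 0.0555). Pik3ca, a catalytic subunit of PI3K, had a change of 0.25 (limma adjusted p = 0.103). With array weights, where 2757 of 19937 genes passed, the list had 4 genes higher and 1 lower.

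Of 31 measured family relatives of the factors, 2 rose and none fell (6.45%, close to the 4.49% of all genes), with a median change of 0.01. Both are Krüppel-like genes known for induction by TGF-beta. Klf10 had 10.64, 10.67, 10.72 and 10.65 in shMKRN1, against 10.50, 10.43, 10.48 and 10.46 in shGFP, and rose by 0.20 (limma adjusted p = 0.0372). Klf11 had 9.23, 8.99, 9.21 and 9.28 in shMKRN1, against 8.81, 9.0, 8.81 and 8.83 in shGFP, with shMKRN1 4 and shGFP 3 overlapping, and rose by 0.31 (limma adjusted p = 0.0443). Neither call was stable: Klf10 kept it in 0 and Klf11 in 1 of the 8 fits without 1 array, and their highest adjusted p-values there were 0.133 and 0.13. Klf11 also lost it with quantile normalization (limma adjusted p = 0.0763). The next by p, Pou2f3 and Klf12, had changes of 0.17 and 0.12 (limma adjusted p of 0.182 and 0.272).

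Of 17 measured genes of the exit from the naive state, 4 rose and none fell (23.5%, against 4.49% of all genes), with a median change of 0.11. They were the ligand gene Wnt8a (0.96), the carbonic anhydrase gene Car14 (0.51), the zinc finger gene Zic5 (0.43) and the DNA methyltransferase gene Dnmt3a (0.25), with limma adjusted p-values of 0.00154 to 0.0191. The other 13 genes of the list, Foxd3 among them (-0.19), did not pass. Changes in the list ran from -0.20 to 0.96, and 14 of the 17 were positive. Wnt8a had 8.83, 8.88, 8.84 and 8.86 in shMKRN1, against 7.58, 7.85, 8.14 and 7.99 in shGFP. With quantile normalization, where 1096 of 19937 genes passed, the list had 3 genes higher and 1 lower. Dnmt3a lost its call there (limma adjusted p = 0.0559). Dnmt3a kept its call in 3 of the 8 fits without 1 array (highest limma adjusted p 0.0633), and Wnt8a, Car14 and Zic5 in all 8. Median centring gave the list 6 genes higher and none lower, where 1000 of 19937 genes passed. Array weights gave 6 and 1, where 2757 of 19937 passed. The fit of the genes above the median level also gave 6 and 1, with 16 of the list tested and 1595 of 9968 genes passing. A variance trend with robust moderation gave 7 and none, where 1549 of 19937 passed. No difference between the lists was tested. All of them were chosen with earlier results of these data known, so their shares are descriptions.

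**Figure D5:**
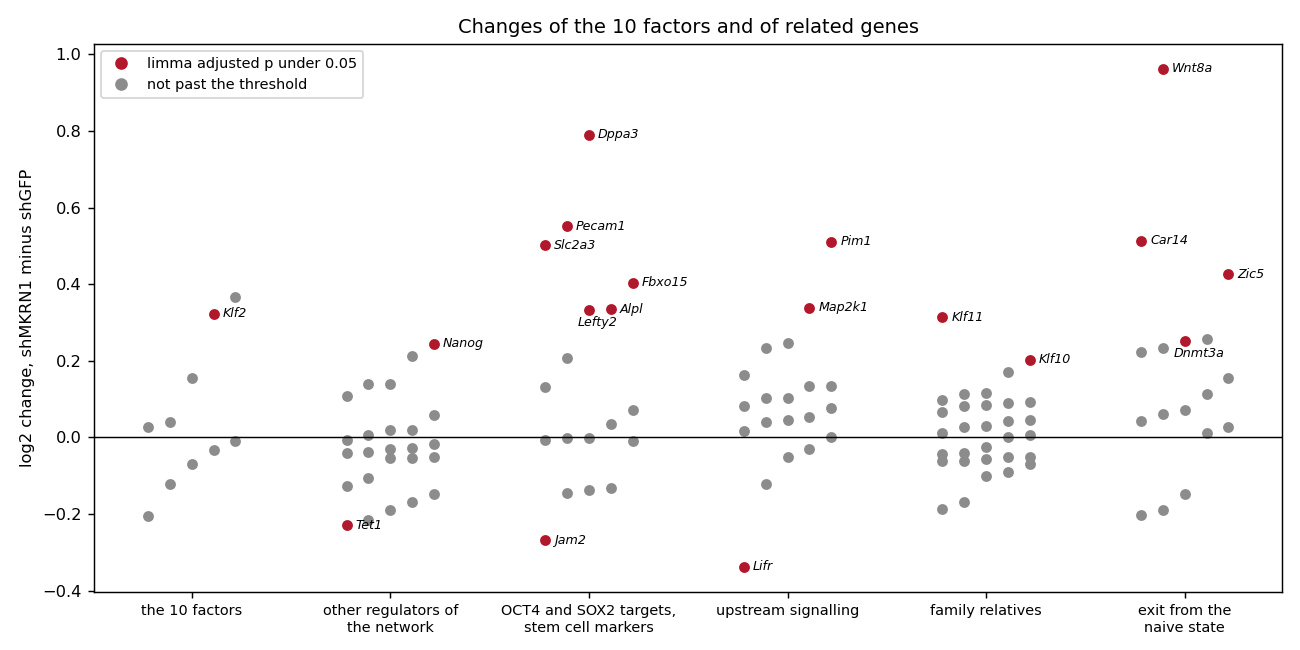
Log2 change, shMKRN1 minus shGFP (vertical axis), of the 10 factors and of the members of 5 related gene lists, 1 point per gene; red points are past the limma threshold and named. The factors lie between -0.20 and 0.37, and single genes of the other lists reach 0.96 (Wnt8a) and -0.34 (Lifr).

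Some markers of other cell types also passed the test, which 3.66% of all genes did as higher and 0.838% as lower. Of 5 measured mesendoderm markers 3 rose (Mixl1, Eomes and Lhx1), and the mean level of the list was 7.55 to 7.86 in shMKRN1 arrays and 6.85 to 7.11 in shGFP arrays. Of 7 trophectoderm markers 2 rose (Tfap2c and Eomes), with list means of 8.17 to 8.46 in shMKRN1 and 7.89 to 8.18 in shGFP. Eomes is counted in both of these lists, and its change (0.96) was the largest of the trophectoderm list. Of 10 fibroblast markers 2 rose (Col1a1 and Pdgfrb, limma adjusted p of 0.0486 and 0.0342). The list means were 7.25 to 7.44 in shMKRN1 and 7.22 to 7.37 in shGFP. Changes in this list ran from -0.27 (Acta2) to 0.37 (Col1a1). Of 6 neural ectoderm markers Neurod1 fell, with list means of 7.88 to 7.94 in shMKRN1 and 8.13 to 8.29 in shGFP. None of 8 primitive endoderm markers passed, with list means of 7.74 to 7.93 in shMKRN1 and 7.73 to 7.97 in shGFP. The fibroblast markers Postn and Lum, the trophectoderm marker Elf5 and the mesendoderm marker Mesp1 lay within the range of silent receptor genes. Lhx1 was also dim in shGFP, at 6.40, 6.54, 6.19 and 6.46, with the silent level at 6.50. How the marker calls held in fits without an array was not examined. The part of these markers in the values of the 10 factors was not tested.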

How the data were processed

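The authors deposited log2 expression values of 34760 probe sets on 8 arrays, and the submitters' processing notes name RMA, without a version. RMA usually brings arrays close to a common distribution, which can hide a shift shared by most genes, and it compresses changes of dim probe sets; the deposited medians still differed (7.14 to 7.24). Samples were grouped by the hairpin in their titles. Of the probe sets, 21640 had 1 gene symbol, 1321 several and 11799 none in the platform annotation; the highest mean row per symbol left 19937 genes. A linear model by group was fitted to these (R 4.3.3, limma 3.58.1; lmFit and eBayes; 6 residual degrees of freedom, no filter, no covariate), two-sided, with Benjamini-Hochberg adjustment over all genes and a threshold of 0.05. Klf pairs used an exact permutation test over 70 assignments, and over fewer where an array was left out. The number of arrays limits the precision.

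The factors, gene lists, markers and tests were chosen with earlier results of these data known. The promoter motifs and the promoters shown were chosen after the sequences and values were seen. Named genes were the 10 factors, Mkrn1, the genes of each list past the threshold, filled up by smallest p to 4 where fewer passed, and the 4 nearest profiles (predicted genes left out) of the 3 factors with the largest changes. Alternatives were other scalings, a level filter, array weights, a variance trend with robust moderation, other probe set rules and arrays left out. Some genes of the lists are not reported here.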

Additional observations from a re-analysis of the deposited data

Results flagged for a closer look

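Groups of 4 arrays were searched for an array far from the other 3, for the 10 factors and 24 other named genes (68 groups; chance flags about 1 in 20). Of these, 4 stood out, and 1 was among the factors. Sox2 on shGFP 7 was at 11.63, against 11.67 to 11.68 on the other shGFP arrays, with a gap of 0.843 of the whole range. Zic5 on shGFP 7 was at 10.95, against 10.78 to 10.79 (0.96 of the range). Pecam1 on shMKRN1 8 was at 8.76, against 8.95 to 8.98 on the other shMKRN1 arrays (0.873), and Klf11 on shGFP 3 was at 9.0, against 8.81 to 8.83 (0.855).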

How the results depend on the processing

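No paired analysis was made, because the arrays of the 2 groups share no replicate number and no label pairs them. The numbers alternate between the groups, and an effect of that order was not tested. Over all genes 896 passed, and over the factors 1. Genes below the median level left out gave 1595 genes and 3 factors, array weights 2757 and 3, a variance trend with robust moderation 1549 and 3, each time Klf2, Tbx3 and Nr0b1. Adjustment over every probe set gave 521 of 34760 probe sets and 0 factors. Of 19937 genes, quantile normalization gave 1096 and 0 factors, and median centring 1000 and 2 (Klf2 and Tbx3). The fit without both shGFP 7 and shMKRN1 8 gave 917 of 19937 genes and 0 factors. Leaving out 1 array gave 309 to 852 genes and 0 to 1 factors: 353 without shMKRN1 2, 387 without shMKRN1 4, 309 without shMKRN1 6, 505 without shGFP 1 and 324 without shGFP 3. Of all calls 81.4% were higher, and 70.1% with array weights. The sign of Pou5f1 turned with quantile normalization (0.013), median centring (0.017), array weights (0.022) and without both arrays (0.0076), and without single arrays its change lay between -0.022 and 0.0052. The sign of Zfp42 turned with quantile normalization (-0.0017), array weights (-0.0087) and without both arrays (-0.026), and without single arrays its change lay between -0.046 and 0.11. For Klf2 against Klf5 the difference was 0.25 with quantile normalization (exact permutation p = 0.0571). Without single arrays it lay between 0.22 and 0.35, that of Klf2 against Klf4 between 0.40 and 0.51, and that of Klf4 against Klf5 between -0.22 and -0.10. The cause of these shifts was not tested; fits without an array have fewer samples.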
